A study of Arabidopsis thaliana with 30 samples.

Results

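The nuclear genes of the photosynthetic machinery of Arabidopsis thaliana were followed from dry seed to green seedling. The set held 45 genes of the 38217 in the deposited count table, chosen by gene identifier as nuclear genes for the light-harvesting antenna (LHCA and LHCB), photosystem I (PSA), photosystem II (PSB), electron carriers (PET and ferredoxin) and the chloroplast ATP synthase. By function, 17 belonged to the antenna, 12 to photosystem I, 10 to photosystem II, 4 to the electron carriers and 2 to the ATP synthase. The rule names gene identifiers, and the set was drawn up with earlier results of these data known.

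Light energy is caught by chlorophyll bound to antenna proteins and passed to the reaction centres of photosystem II and photosystem I. Photosystem II splits water, electrons travel through plastoquinone, the cytochrome b6f complex and the copper protein plastocyanin to photosystem I, and photosystem I reduces ferredoxin. The proton gradient built on the way drives the ATP synthase. The reaction centre proteins are encoded in the chloroplast genome, whereas the antenna and many peripheral subunits are encoded in the nucleus and imported. In a dry seed the plastids are not photosynthetic, and nuclear genes for photosynthesis are textbook targets of light signalling in the emerging seedling.

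All libraries came from wild type Col0 and were made in triplicate at 10 time points. Seeds were taken fresh at harvest (H) and after dry ripening (0 h), for which the sample labels give 14 days. They were then plated on MS medium, held at 4 °C in darkness (stratification, S) for 1, 12 or 48 h. After 48 h of stratification they were moved to continuous light of 100 µE at 22 °C (SL) for 1, 6, 12, 24 or 48 h. Light and warming began together, so their effects cannot be told apart. The medium held sucrose, and all seed came from a single batch of plants, which sets the kind of spread that the replicates can show. Whole seeds or seedlings were used, and in such bulk samples fewer cells of a type and less RNA per cell cannot be told apart.

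Reads were counted per gene, from 8234345 (1 h S replicate 2) to 76294780 (48 h SL replicate 3) per library, with a median of 47254122. Levels are given as CPM, the reads of a gene scaled to a common total of counted reads. Levels of different genes are compared only as CPM per kb of exon length. Of the 45 genes, 44 passed the filter on low counts and were tested. The gene left out, LHCB1.5, is described next.

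LHCB1 is the most abundant antenna family of photosystem II, and its 5 genes are so alike that their reads can be hard to assign. Over their coding sequences LHCB1.1, LHCB1.2 and LHCB1.3, which are neighbours on chromosome 1, were 95.6 to 96.4% identical, and LHCB1.4 and LHCB1.5, neighbours on chromosome 2, were 92.5% identical to each other. Of all windows of 50 coding bases, 34.3% in LHCB1.1, 16.6% in LHCB1.2, 26.6% in LHCB1.3, 23.0% in LHCB1.4 and 23.0% in LHCB1.5 occurred unchanged in another gene of the family. The levels of single LHCB1 genes, and likewise of LHCB2.1 (24.0% of windows) and LHCB2.2 (29.0%), are therefore uncertain wherever such reads were split or dropped, whereas no window was shared within the LHCB4, PSAD, PSAE, PSAH, PSBO, PSBQ and PETE families. LHCB2.1 and LHCB2.2 were compared only with each other, and not with LHCB2.3, a gene of that family outside the set. The stretch of 90 coding bases in which the 5 genes differed most is shown because it carries the bases by which their reads can be told apart, with 22 variable positions. It lies at chr1:10475620-10475709 (minus strand), chr1:10472974-10473063 (minus), chr1:10478254-10478343 (plus), chr2:14524998-14525087 (plus) and chr2:14523247-14523336 (minus) of TAIR10.1 (RefSeq), in the coding exon of each gene. Capitals mark bases held by at most 2 of the 5 genes.
LHCB1.1: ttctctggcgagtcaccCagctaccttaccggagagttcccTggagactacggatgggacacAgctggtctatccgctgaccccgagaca
LHCB1.2: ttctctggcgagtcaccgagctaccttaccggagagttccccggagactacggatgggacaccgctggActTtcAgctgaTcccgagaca
LHCB1.3: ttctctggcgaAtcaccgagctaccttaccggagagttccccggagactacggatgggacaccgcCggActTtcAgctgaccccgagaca
LHCB1.4: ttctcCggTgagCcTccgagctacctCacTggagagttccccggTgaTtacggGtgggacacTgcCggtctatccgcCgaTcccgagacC
LHCB1.5: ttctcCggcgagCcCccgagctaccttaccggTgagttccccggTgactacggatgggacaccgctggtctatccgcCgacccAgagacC

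LHCB1.5 (AT2G34420) was listed at 0 counts in all 30 libraries. Its whole exon, chr2:14522524-14523568 on the minus strand, lies inside AT2G08665 on the plus strand in the annotation used for counting, and the libraries were not stranded, so that reads of both genes cannot be told apart. In the deposited transcript table, which was made by a different method, LHCB1.5 was present, at 11.8, 10.2 and 11.3 in the 3 libraries of H, 0.633, 0.712 and 2.50 at 48 h S and 609, 530.3 and 522 at 48 h SL, in TPM rescaled per library. On that scale it rose between 12 h SL and 24 h SL (limma, log2 fold change 5.01 with SE 0.63 and adjusted p = 4.65e-07). The 0 in the count table therefore sets no level for the gene. Partial overlap with a neighbour touched 15 of the 45 members and reached 50% or more of the exon length in 3, namely LHCB1.5, PSAG (61.4%) and PSAH1 (53.3%). The ratio of transcript table to CPM per kb at 48 h SL was 2.58 for PSAG, against a median of 0.862 and a range of 0.751 to 1.45 over the 42 members with less overlap. The top of that range, 1.45, was the ratio of PSAE1, with 34.1% of its exon length overlapped. The ratio for PSAH1, 1.11, lay inside the range. PSAG was thus low in counts relative to the transcript table, and for LHCB1.5, at 0 in counts, no ratio can be formed.

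Several seed libraries stood apart. In 1 h S replicate 2, which also had the fewest reads, the 44 members with counts stood at 5.06 to 14.5% of their own mean level at 48 h SL, with a median of 6.88%. The median was 1.92% in replicate 3 and 0.473% in replicate 1. The members were also unusually even in replicate 2, where the 90th percentile of these percentages was 1.57 times the 10th, against 10.4 times in replicate 1 and 1.05 to 1.09 times in the 3 libraries of 48 h SL. By their medians, markers of root and of green tissue moved in the same way. The median of 5 root markers (SMB, COBL9, EXPA7, EXPA18 and PRP3) stood at 0.295, 7.80 and 1.75% of the 48 h SL level in replicates 1, 2 and 3. The median of 3 green tissue markers (RBCS1A, RBCS2B and RCA) stood at 0.480, 7.52 and 1.80%. None of these 8 markers was at 0 in any library. Summed over the 5 root markers the level was 3.16 to 5.17 CPM at 0 h, 3.51 to 91.7 CPM at 1 h S and 2.46 to 4.68 CPM at 12 h S. Over the 3 green tissue markers it was 26.4 to 63.3, 35.2 to 551 and 15.7 to 24.1 CPM. Over 2 endosperm markers (EXPA2 and MAN7) it was 4.74, 41.5 and 13.2 CPM in replicates 1, 2 and 3 of 1 h S. Over 5 seed storage markers (CRA1, CRU2, CRU3, EM1 and EM6) it was 62328, 62190 and 103709 CPM in these libraries, and so not highest in replicate 2. Smaller differences of the same kind separated 0 h replicates 1 and 2 from replicate 3 (members at 0.731, 0.725 and 0.411% and green tissue markers at 0.757, 0.786 and 0.359%). They also separated 48 h S replicate 3 from replicates 1 and 2 (members at 0.425, 0.365 and 0.657% and root markers at 0.116, 0.125 and 0.634%). Of the root markers SMB did not follow and was expressed in seed. It had 127, 183 and 92 reads at 48 h S against 152, 162 and 164 at 48 h SL. At 12 h SL, replicate 3 had root markers at 2.11%, against 0.719% and 0.499% in replicates 1 and 2, and chloroplast genes took 0.365% of its reads against 0.0390% and 0.0673%. The part of other tissue or of library preparation in these differences was not tested, and counts that rest on 1 h S are given with and without its replicates 2 and 3.

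**Figure D1:**
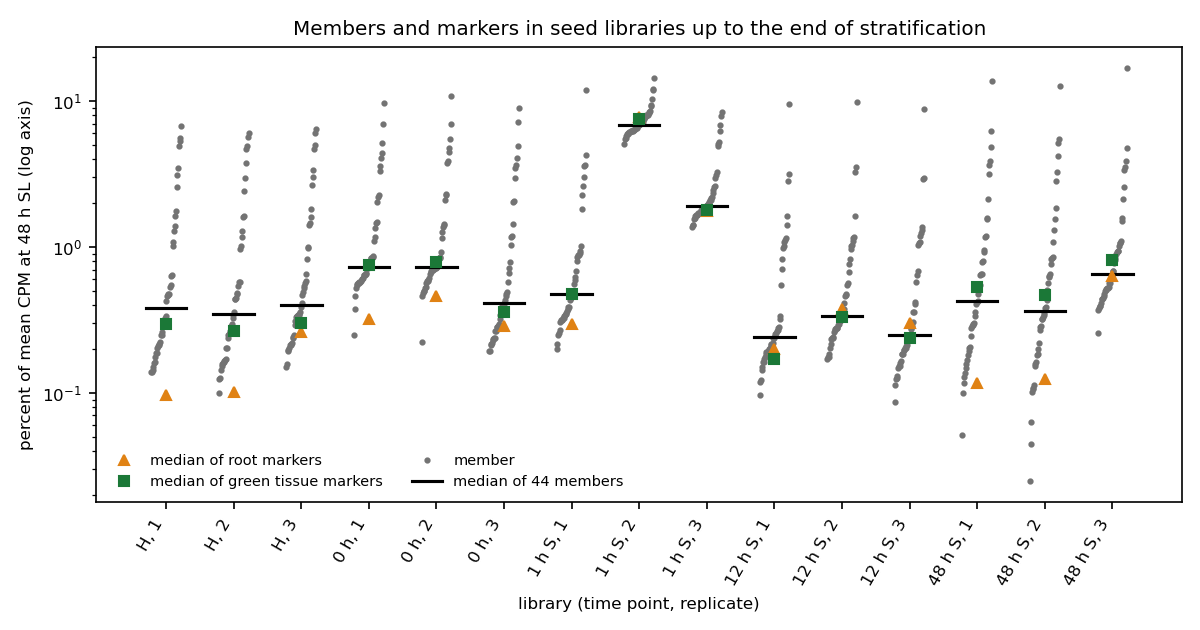
Level of each of 44 members (grey points) in the 15 libraries from H to 48 h S, as percent of the member's mean CPM at 48 h SL on a log axis, with the median of the members (bar), of the root markers (triangles) and of the green tissue markers (squares). In 1 h S replicate 2 all members lie between 5.06 and 14.5%, level with both marker medians.

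Across the time course the members were low in seed and highest in the seedling. A time effect was found for 44 of the 45 genes (DESeq2 likelihood ratio test over all 10 time points, adjusted p below 0.01), as for 73.8% of all genes tested. In CPM, all 44 had their highest mean at 48 h SL, and in 43 the 3 libraries of 48 h SL were above the 27 others, the exception being LHCB4.3. How many of all genes had this pattern was not counted, and 45.8% of all genes were called higher from 0 h to 48 h SL. After the scaling used for testing, the fold change of LHCB4.3 from 24 h SL to 48 h SL was slightly negative. The lowest mean in CPM was at 12 h S for 21 members and at H for 12. Together the 45 genes took 0.0193 to 0.0211% of the counted reads in the 3 libraries of H and 1.98 to 2.296% in those of 48 h SL. The mean CPM at 48 h SL was 6.92 times that at 48 h S for PSBR, the smallest such ratio. The largest was that of PSAG, which had 2, 2 and 13 reads in the 3 libraries of 48 h S, too few for a firm ratio and mostly in replicate 3.

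**Figure D2:**
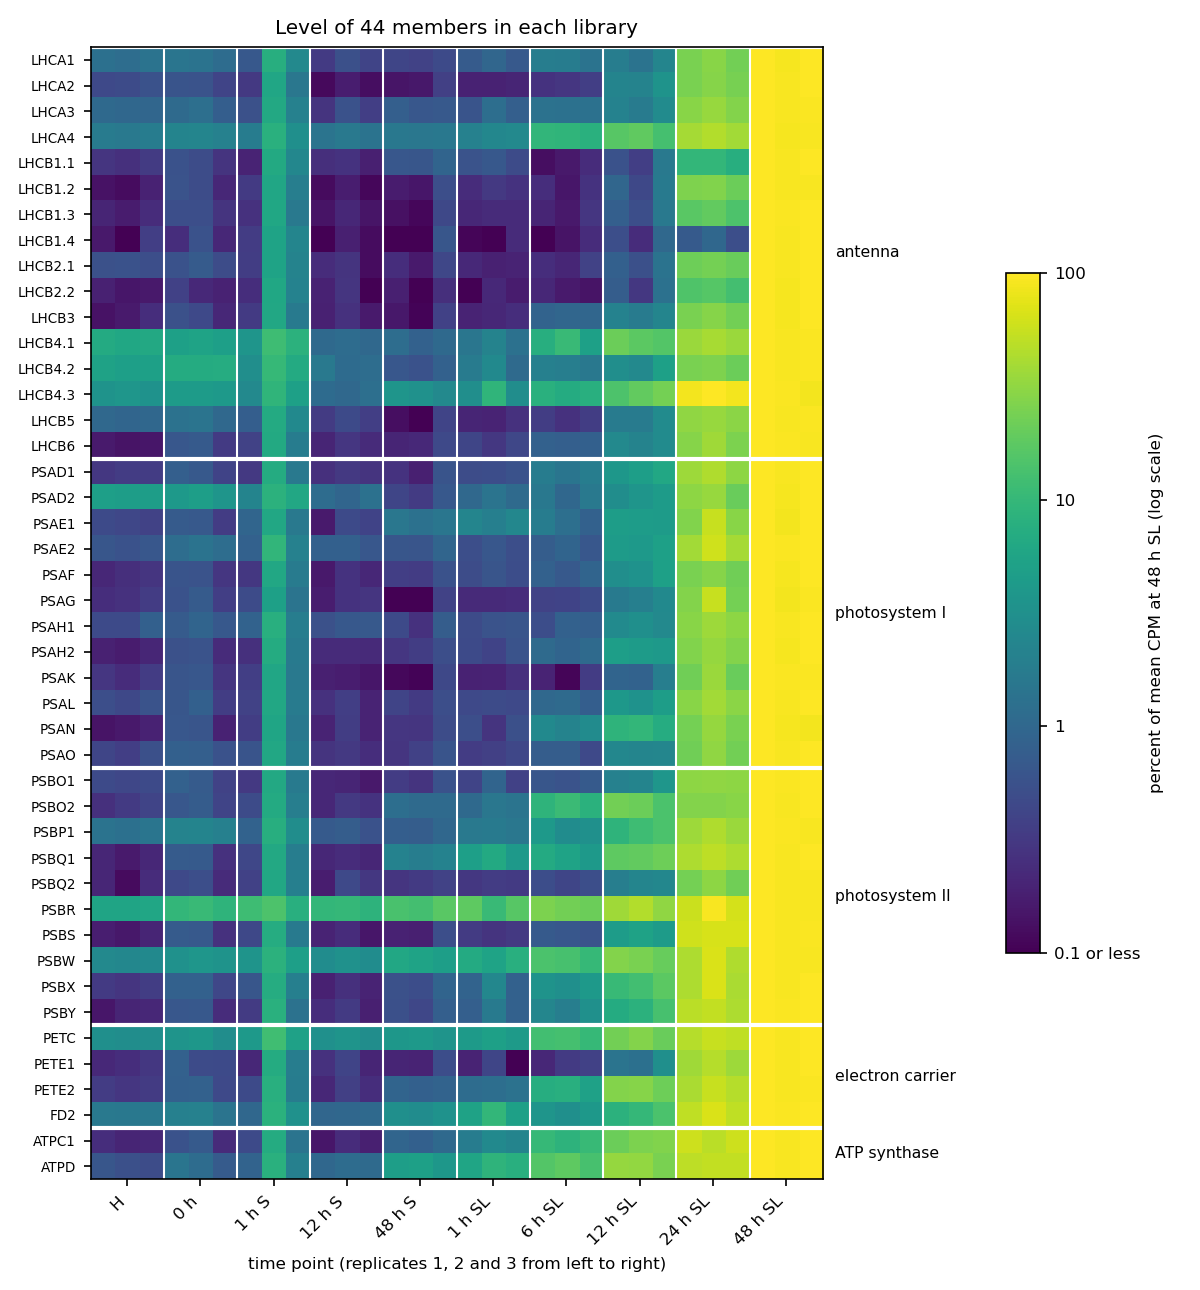
Level of 44 members (rows, by group) in each of the 30 libraries (columns, replicates 1 to 3 from left to right within a time point), coloured by the percent of the member's mean CPM at 48 h SL on a log scale. Every member but LHCB4.3 is brightest at 48 h SL, PSBR and LHCB4.1 are visible from H onwards, and the middle column of 1 h S stands out in most rows, though not in that of PSBR.

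Consecutive time points were compared with edgeR's quasi-likelihood test over all genes, and a gene was called at an adjusted p below 0.01. From H to 0 h, 0 members were called higher (2.56% of all genes) and 0 lower (6.26%), with 15 members at an unadjusted p below 0.05, and DESeq2's Wald test called 4. From 0 h to 1 h S, 14 members were called higher (1.24% of all genes) and 0 lower (2.04%). From 1 h S to 12 h S, 0 were called higher (18.1%) and 43 lower (17.7%). The calls of these 3 steps rested on the libraries that stood apart. With 1 h S replicates 2 and 3 left out, 11 members were called higher from H to 0 h (6.22% of all genes in that fit), 0 from 0 h to 1 h S (0.0666%), and 15 were called lower from 1 h S to 12 h S (8.15%). Without 0 h replicate 1 or 0 h replicate 3, 0 were called from 0 h to 1 h S, and without 1 h S replicate 1, 38. Leaving out 1 h S replicate 2 alone gave 7 calls from H to 0 h and 0 from 0 h to 1 h S. From 0 h straight to 12 h S, 21 members were called lower (19.6% of all genes) in the fit to all libraries. The number was 33 (23.5%) with 1 h S left out. From H to 12 h S, 12 were called lower (26.9%), and 15 (29.5%) with 1 h S left out.

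Over the rest of the cold dark period, between 12 h S and 48 h S, 8 members were called higher (27% of all genes) and 2 lower (24.8%). In the first hour of light, 2 were called higher (4.43%) and 0 lower (3.66%), and 0 were called without 48 h S replicate 2 or 1 h SL replicate 2, 6 without 1 h S replicate 1 and 7 without 1 h S replicate 2. Between 1 h SL and 6 h SL the counts were 10 higher (17.3%) and 2 lower (16.8%), and between 6 h SL and 12 h SL 31 higher (10.7%) and 0 lower (12.9%). Between 12 h SL and 24 h SL, 37 were called higher (25.9%) and 0 lower (22%), and between 24 h SL and 48 h SL 33 higher (21.9%) and 0 lower (19%). After 6 h SL the share of members called higher was above that of all genes in each step. With 1 h S replicates 2 and 3 left out, 10 members were called higher (27.5% of all genes in that fit) and 3 lower (26.4%) from 12 h S to 48 h S, and 9 higher (7.65%) in the first hour of light. In the same fit, 19 were called higher (19.8%) and 2 lower (18.9%) between 1 h SL and 6 h SL, and 39 (14.2%), 42 (27.7%) and 40 (23.5%) higher in the last 3 steps. In the first hour of light the share of members called higher was thus near that of all genes in the fit to all libraries, and above it with those libraries left out. Without 6 h SL replicate 2 the step to 12 h SL had 20 higher in place of 31.

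Over the longer spans, 6 members were called higher (34.9% of all genes) and 10 lower (32.5%) from H to 48 h S, and 44 higher (45.8%) and 0 lower (33.3%) from 0 h to 48 h SL. The first of these moved to 9 calls in all without 48 h S replicate 1, and to 10 without 48 h S replicate 2 or without H replicate 2. The median log2 fold change of the members from 0 h to 48 h SL was 6.16, against 0.44 over all genes tested. From H to 48 h S these medians were -0.33 and 0.11, and in the 9 consecutive steps the median of all genes stayed between -0.09 and 0.08.

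**Figure D3:**
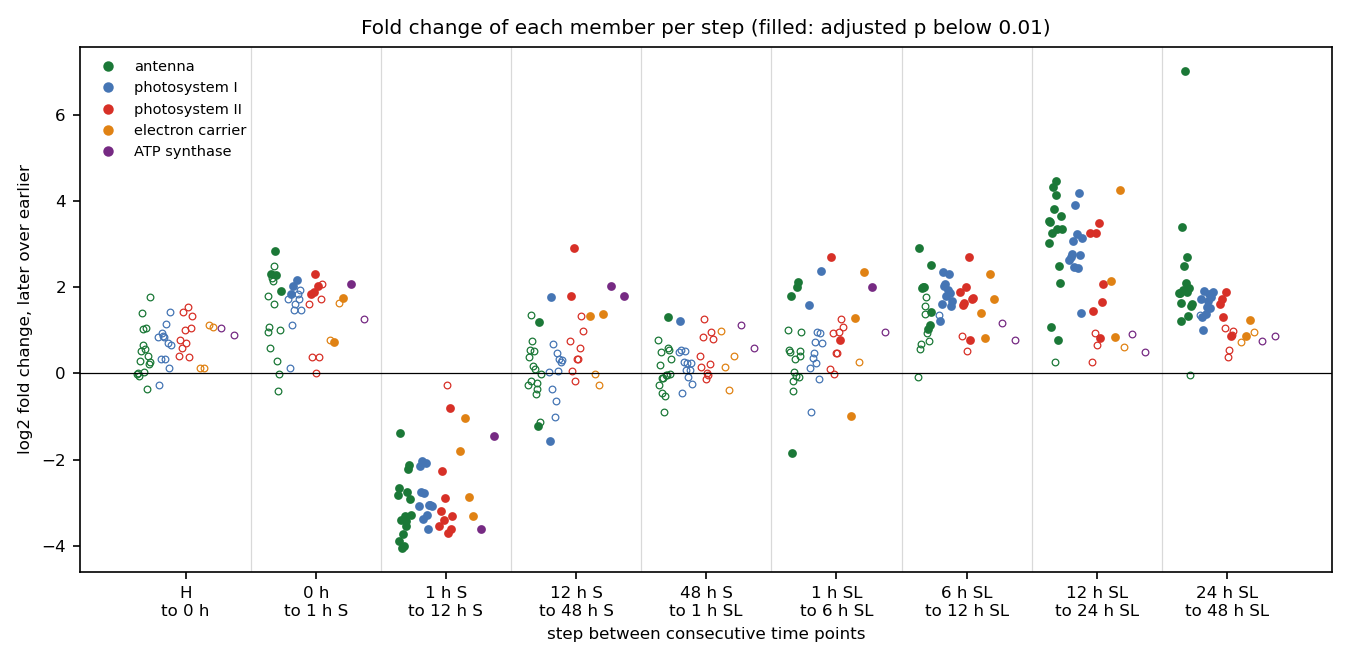
Log2 fold change of each of the 44 tested members in the 9 consecutive steps, coloured by group, with filled points for an adjusted p below 0.01 (edgeR). Antenna genes reach the highest values in the steps between 12 h SL and 24 h SL and between 24 h SL and 48 h SL, where the top point is LHCB1.4 at 7.02.

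The antenna of photosystem II was dominated by LHCB1.3. At 48 h SL LHCB1.3 (AT1G29930) stood at 3101, 2826 and 2967 CPM in the 3 libraries, which is 2410.2 ± 112 CPM per kb (mean ± SD, n = 3). This was the highest level per length of all members. The next antenna genes at that time, in CPM per kb, were LHCB1.2 (AT1G29910) at 678 ± 74.2, LHCA4 (AT3G47470) at 559 ± 72.7, LHCB3 (AT5G54270) at 556 ± 50.02 and LHCB5 (AT4G10340) at 552 ± 52.5. The last 3 of these lay within 1 SD of each other. LHCB1.5, which has no level in counts, is not part of this ranking. In the transcript table it stood at a mean of 554 at 48 h SL, below LHCB1.3 (2389) and LHCB1.2 (635) and above LHCB3 (447). LHCB3 and LHCB2 form trimers with LHCB1 in the main antenna. LHCB5, LHCB4 and LHCB6 are the single minor antenna proteins that join it to the core, and LHCA1 to LHCA4 form the belt around photosystem I. LHCB4.1 (AT5G01530) stood at 491 ± 47.5, LHCB1.1 (AT1G29920) at 438 ± 29.1, LHCB6 (AT1G15820) at 414 ± 36.1, LHCA2 (AT3G61470) at 403 ± 29.9, LHCA3 (AT1G61520) at 335 ± 27.5 and LHCA1 (AT3G54890) at 293 ± 29.2 CPM per kb. Lower levels were found for LHCB4.2 (AT3G08940) at 194 ± 16.9, LHCB1.4 (AT2G34430) at 109.8 ± 6.58, LHCB2.1 (AT2G05100) at 101 ± 6.99 and LHCB2.2 (AT2G05070) at 98.6 ± 8.77. The lowest with counts was LHCB4.3 (AT2G40100) at 38.2 ± 5.37.

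In seed the order was different. In freshly harvested seed LHCB4.1 was at 46.2, 41.5 and 43.9 CPM and LHCB1.3 at 6.05, 4.999 and 7.04 CPM. Per length these were 31.4 ± 1.68 and 4.90 ± 0.830 CPM per kb, with the minor antenna gene above the main one in every library. LHCB4.2 was at 14.1, 13.1 and 13.3 CPM and LHCA4 at 12.8, 11.7 and 13.1 CPM in the same libraries. From H to 48 h S 8 of the 16 tested antenna genes were called lower (32.5% of all genes) and 0 higher (34.9%). The 8 were LHCB4.2, LHCB4.1, LHCB5, LHCA1, LHCA2, LHCB2.1, LHCA3 and LHCA4. LHCB4.1 fell to 8.06, 5.85 and 7.28 CPM at 48 h S (log2 fold change -3.19 with SE 0.24 and adjusted p = 3.46e-12). LHCB4.2 fell to 1.72, 1.49 and 2.24 CPM (log2 fold change -3.45 with SE 0.28 and adjusted p = 1.28e-11), with no overlap between the 2 time points in either gene. LHCB5 went from 7.81, 7.39 and 7.70 to 0.982, 0.783 and 3.17 CPM (log2 fold change -2.78 with SE 0.42 and adjusted p = 9.00e-07). Replicate 3, the library with the higher markers, was the highest of the 3 at 48 h S. For LHCB2.1 the values were 0.785, 0.817 and 0.749 CPM at H and 0.348, 0.231 and 0.625 CPM at 48 h S (log2 fold change -1.56 with SE 0.46 and adjusted p = 0.00353).

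Changes into 1 h S and out of it rested on its replicates 2 and 3. LHCB2.2 had the largest called rise from 0 h to 1 h S, from 0.425, 0.250 and 0.217 to 0.281, 6.92 and 2.44 CPM (log2 fold change 2.84 with SE 0.59 and adjusted p = 0.00415), and replicate 1 of 1 h S lay within the range of 0 h. LHCB1.2 had the largest called fall from 1 h S to 12 h S, from 2.71, 49.8 and 15.8 to 1.01, 1.46 and 0.933 CPM (log2 fold change -4.05 with SE 0.59 and adjusted p = 3.15e-06). Replicates 2 and 3 were far above replicate 1 here too, and replicate 1 was still above all 3 libraries of 12 h S. PSBW, a small subunit of photosystem II, had the smallest called fall of that step, from 9.94, 23.6 and 13.7 to 7.93, 9.18 and 8.10 CPM (log2 fold change -0.81 with SE 0.21 and adjusted p = 0.00227).

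Few antenna genes were called in the first 6 h of light, and the rates over the whole tested set were also low at 1 h SL. There a rise was called for 4.43% of all genes and a fall for 3.66%. At 6 h SL these rates were 17.3% and 16.8%. Whether the antenna differed from them was not tested. LHCB4.2 was the antenna gene called higher at 1 h SL, with 4.64, 7.10 and 2.91 CPM against 1.72, 1.49 and 2.24 at 48 h S (log2 fold change 1.32 with SE 0.27 and adjusted p = 0.00129), and all 3 libraries were above those of 48 h S. At 6 h SL LHCB4.1, LHCB3 and LHCA4 were called higher than at 1 h SL. LHCB4.1 reached 52.4, 73.2 and 34.8 CPM from 10.3, 15.1 and 9.01 (log2 fold change 2.13 with SE 0.23 and adjusted p = 3.15e-08), and LHCB3 reached 6.22, 6.78 and 6.82 from 1.36, 1.5 and 1.72 (log2 fold change 1.99 with SE 0.49 and adjusted p = 0.00151). LHCB1.1 went the other way. It had been at 3.77, 3.65 and 5.38 CPM at 48 h S and 3.34, 3.89 and 2.81 at 1 h SL, and fell to 0.742, 0.913 and 1.38 at 6 h SL (log2 fold change -1.85 with SE 0.56 and adjusted p = 0.00820), its lowest time point.

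Most antenna genes were called higher between 12 h SL and 24 h SL. LHCA2 had the largest called rise of all members between 6 h SL and 12 h SL, from 1.57, 1.68 and 2.05 to 12.6, 12.6 and 19.9 CPM (log2 fold change 2.90 with SE 0.45 and adjusted p = 1.75e-05), and 8 of the 16 tested antenna genes were called higher in that step. Between 12 h SL and 24 h SL 15 of 16 were called higher, with a median log2 fold change of 3.35. LHCB2.1 had the largest rise of all members there, from 1.17, 0.763 and 1.99 to 30.6, 33.7 and 29.2 CPM (log2 fold change 4.45 with SE 0.41 and adjusted p = 1.31e-09), and the next were LHCB1.2 (4.33), LHCB2.2 (4.14) and LHCB1.3 (3.81 on the log2 scale) among antenna genes. LHCB1.3 itself went from 23.9, 15.7 and 48.9 to 502, 561 and 426 CPM, and at 12 h SL its replicate 3 was above the other 2. The smallest called rise of that step was that of LHCB4.1, from 144, 121 and 108 to 245, 279 and 242 CPM (log2 fold change 0.77 with SE 0.22 and adjusted p = 0.00437).

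LHCB1.4 and LHCB4.3 departed from the other antenna genes in the last day. LHCB1.4 was the one tested antenna gene not called between 12 h SL and 24 h SL, with 0.754, 0.347 and 1.5 CPM at 12 h SL against 1.01, 1.46 and 0.752 at 24 h SL. It then rose to 147, 134 and 151 CPM, the largest change of any member in any step (log2 fold change 7.02 with SE 0.62 and adjusted p = 3.59e-10). LHCB1.1 was the next, from 55.9, 55.3 and 44.1 to 618, 543 and 568 CPM (log2 fold change 3.39 with SE 0.52 and adjusted p = 4.29e-06). LHCB4.3 was the one antenna gene not called in that step, and its libraries overlapped, with 49.4, 62.4 and 49.6 CPM at 24 h SL and 64.2, 52.5 and 49.4 at 48 h SL (log2 fold change -0.05 with SE 0.24 and adjusted p = 0.890). It had risen before, from 4.50, 3.89 and 4.27 at 6 h SL to 7.96, 10.6 and 13.2 at 12 h SL (log2 fold change 1.13 with SE 0.26 and adjusted p = 0.00113). By 24 h SL its mean was at 97.1% of the 48 h SL level, whereas that of LHCB1.4 was at 0.747%.

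Photosystem I genes reached their seedling level late. At 48 h SL the highest level per length was that of PSAF (AT1G31330), which helps plastocyanin dock, at 764, 634 and 696 CPM or 580.1 ± 53.8 CPM per kb. The lowest in counts was that of PSAH1 (AT3G16140), at 115, 104 and 117 CPM or 86.2 ± 5.43 CPM per kb, a gene whose exons overlap a neighbour. Between them, in CPM per kb, lay PSAD1 (AT4G02770) at 523 ± 29.5, PSAK (AT1G30380) at 501 ± 38.6, PSAL (AT4G12800) at 449.8 ± 34.1, PSAN (AT5G64040) at 439 ± 70.7 and PSAO (AT1G08380) at 337 ± 27.4. PSAD and PSAE form the ferredoxin docking side. PSAG and PSAK sit at the edge beside the antenna, and PSAH, PSAL and PSAO line the side where LHCII docks in state transitions. PSAH2 (AT1G52230) stood at 311 ± 22.4, PSAE2 (AT2G20260) at 184 ± 9.68, PSAE1 (AT4G28750) at 168 ± 15.0, PSAD2 (AT1G03130) at 163 ± 16.7 and PSAG (AT1G55670), the other gene with a large overlap, at 102 ± 14.6 CPM per kb. Neighbours in this order, such as PSAL and PSAN or PSAE1 and PSAD2, lay within their SD.

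In the consecutive steps between 12 h S and 6 h SL, few photosystem I genes were called. Over the whole tested set, a rise was called for 27, 4.43 and 17.3% of all genes in these steps. A fall was called for 24.8, 3.66 and 16.8%. Whether photosystem I differed from these rates was not tested. PSAD2 had the largest called fall of all members from 12 h S to 48 h S, from 1.81, 1.5 and 2.03 to 0.655, 0.516 and 1.06 CPM (log2 fold change -1.57 with SE 0.29 and adjusted p = 3.36e-05), and from H, at 7.60, 7.32 and 7.34 CPM, its fall to 48 h S was also the largest (log2 fold change -3.89 with SE 0.29 and adjusted p = 1.64e-12). It then rose at 1 h SL to 1.59, 2.205 and 1.69 CPM (log2 fold change 1.22 with SE 0.29 and adjusted p = 0.00467), still below every library of H. PSAE1 rose in the dark, from 0.218, 0.640 and 0.540 at 12 h S to 2.07, 1.76 and 2.02 CPM at 48 h S (log2 fold change 1.78 with SE 0.42 and adjusted p = 5.96e-04). At 6 h SL the called photosystem I genes were PSAN and PSAD1. PSAN, a subunit on the lumen side, went from 2.36, 1.25 and 2.43 to 11.8, 9.89 and 12.6 CPM (log2 fold change 2.37 with SE 0.46 and adjusted p = 1.34e-04). Between 6 h SL and 12 h SL 11 of 12 were called higher, all but PSAD1, between 12 h SL and 24 h SL 12 of 12, and between 24 h SL and 48 h SL 11 of 12, all but PSAD1. PSAK had the largest rise to 24 h SL, from 3.60, 3.37 and 7.48 to 87.2, 136 and 78.7 CPM (log2 fold change 4.19 with SE 0.53 and adjusted p = 2.26e-07), with 24 h SL replicate 2 the highest of its time point in all 12 genes of the complex. At 24 h SL the 12 genes stood at 25.1 to 46.4% of their 48 h SL means in CPM. On that scale, without TMM factors, none had reached 10% at 12 h SL.

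Photosystem II genes were spread more widely in time. PSBO, PSBP and PSBQ form the shield over the water-splitting cluster, PSBS senses lumen acidity and sets off the heat loss of excess light, and PSBR, PSBW, PSBX and PSBY are small subunits of the core. At 48 h SL PSBX (AT2G06520) had the highest level per length, 476, 420.4 and 449 CPM or 623 ± 38.4 CPM per kb, and PSBQ2 (AT4G05180) the lowest, 324, 274 and 269.6 CPM or 227 ± 23.8 CPM per kb. PSBY (AT1G67740) at 232 ± 9.82 and PSBO2 (AT3G50820) at 237 ± 15.8 were within their SD of PSBQ2. The others stood at 599 ± 52.0 (PSBP1, AT1G06680), 509 ± 31.8 (PSBO1, AT5G66570), 483 ± 46.0 (PSBR, AT1G79040), 466 ± 43.2 (PSBS, AT1G44575), 410.2 ± 32.5 (PSBQ1, AT4G21280) and 291 ± 36.4 CPM per kb (PSBW, AT2G30570).

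PSBR was high before any light was given. It was at 21.3, 21.6 and 22.8 CPM at H, 36.4, 37.5 and 33.4 at 12 h S and 51.8, 48.3 and 64.1 at 48 h S, which is 14.5% of its mean at 48 h SL (24.2% on CPM scaled by TMM factors), and its rise from H to 48 h S was called (log2 fold change 0.77 with SE 0.23 and adjusted p = 0.00400). Its change over 0 h to 48 h SL was the smallest of the 44 (log2 fold change 2.12 with SE 0.24 and adjusted p = 4.82e-09), to 421, 358 and 358 CPM. PSBQ1 and PSBO2 also rose in the dark. PSBQ1 had the largest called rise of all members from 12 h S to 48 h S, from 0.893, 0.971 and 0.851 to 8.74, 7.54 and 8.70 CPM (log2 fold change 2.92 with SE 0.43 and adjusted p = 1.20e-06), and from H to 48 h S (log2 fold change 2.82 with SE 0.43 and adjusted p = 1.04e-06), with no overlap between libraries. PSBO2 went from 0.674, 0.993 and 0.868 to 3.77, 3.42 and 3.46 CPM (log2 fold change 1.79 with SE 0.40 and adjusted p = 3.51e-04), and then had the largest called rise of all members between 1 h SL and 6 h SL, from 3.32, 4.84 and 4.43 to 27.8, 34.8 and 26.0 CPM (log2 fold change 2.71 with SE 0.37 and adjusted p = 9.93e-07).

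The protective subunit PSBS rose in both steps between 6 h SL and 24 h SL. It was at 6.03, 5.53 and 4.91 CPM at 6 h SL and 38.4, 44.7 and 37.8 at 12 h SL (log2 fold change 2.70 with SE 0.46 and adjusted p = 6.53e-05). It reached 515, 559 and 559 at 24 h SL (log2 fold change 3.48 with SE 0.47 and adjusted p = 6.79e-07), with no overlap from step to step. By 24 h SL it stood at 64.6% of its level at 48 h SL (931, 784 and 813 CPM), a last step that was not called (log2 fold change 0.55 with SE 0.43 and adjusted p = 0.292). Between 12 h SL and 24 h SL 7 of the 10 photosystem II genes were called higher and between 24 h SL and 48 h SL 5, with PSBO1, PSBP1, PSBQ2 and PSBW called in both. PSBR, PSBQ1 and PSBO2 were not called in the first of these steps, where PSBO2 went from 71.8, 66.2 and 44.4 to 86.4, 88.4 and 92.5 CPM and PSBQ1 from 74.4, 77.7 and 88.2 to 176, 203 and 175 CPM. For both genes all libraries of 24 h SL were above those of 12 h SL.

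The electron carriers and the ATP synthase were, by group medians, the earliest. FD2 (AT1G60950), the main leaf ferredoxin, had the highest level of these 6 genes at 48 h SL, 819, 734 and 753 CPM or 780.2 ± 45.04 CPM per kb, and the plastocyanin gene PETE1 (AT1G76100) the lowest, 87.3, 75.02 and 79.8 CPM or 77.0 ± 5.93 CPM per kb. The second plastocyanin gene PETE2 (AT1G20340) stood at 495 ± 45.5, PETC (AT4G03280), the Rieske protein of the cytochrome b6f complex, at 352 ± 23.3, and the ATP synthase subunits ATPD (AT4G09650) and ATPC1 (AT4G04640) at 285 ± 20.4 and 269 ± 17.7 CPM per kb, a pair within their SD of each other.

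Both ATP synthase genes rose in cold darkness. ATPD went from 3.33, 3.82 and 3.57 at 12 h S to 15.8, 16.8 and 12.8 CPM at 48 h S (log2 fold change 1.80 with SE 0.32 and adjusted p = 2.56e-05). ATPC1 went from 0.615, 0.993 and 0.753 to 3.87, 3.43 and 4.35 CPM (log2 fold change 2.03 with SE 0.44 and adjusted p = 2.58e-04), with no overlap in either. FD2 and PETE2 were called higher in the same step, with log2 fold changes of 1.33 and 1.39. FD2 then had 41.1, 75.1 and 39.3 CPM at 1 h SL, where replicate 2 was the highest, and fell to 28.0, 24.1 and 30.96 at 6 h SL (log2 fold change -1.0 with SE 0.30 and adjusted p = 0.00805). In the same step PETE2 rose from 7.73, 8.19 and 8.94 to 49.8, 52.1 and 34.6 CPM (log2 fold change 2.35 with SE 0.41 and adjusted p = 3.77e-05). ATPC1 rose from 7.34, 10.8 and 9.18 to 41.3, 35.2 and 42.4 (log2 fold change 2.01 with SE 0.39 and adjusted p = 1.18e-04), and PETC from 16.6, 19.4 and 16.5 to 47.7, 49.9 and 39.4 (log2 fold change 1.27 with SE 0.17 and adjusted p = 8.01e-07). After 12 h SL neither ATP synthase gene was called in a step, with log2 fold changes of 0.91 for ATPC1 and 0.50 for ATPD to 24 h SL. The changes to 48 h SL were 0.76 and 0.86, and the libraries of successive time points did not overlap.

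Set side by side, the groups reached the seedling level in a graded order by their median member. At 48 h S the median member of a group stood at 2.78% of its 48 h SL level for the ATP synthase, 2.00% for the electron carriers, 0.757% for photosystem II, 0.420% for photosystem I and 0.289% for the antenna. At 12 h SL the same order held, with 27.1, 29.3 and 26.0% in replicates 1, 2 and 3 for the ATP synthase, 15.6, 18.8 and 17.3% for the electron carriers, 9.67, 11.9 and 14.2% for photosystem II, 3.45, 3.53 and 4.47% for photosystem I and 2.00, 1.76 and 2.53% for the antenna. No neighbouring groups overlapped. At 24 h SL the antenna (24.9, 28.5 and 23.0%) and photosystem I (27.3, 35.9 and 26.3%) overlapped. So did photosystem II, the carriers and the ATP synthase. The medians of the log2 fold changes ran in the opposite order, between 12 h SL and 24 h SL 3.35 (antenna), 2.76 (photosystem I), 1.56 (photosystem II), 1.49 (carriers) and 0.71 (ATP synthase), and between 24 h SL and 48 h SL 1.88, 1.61, 1.02, 0.92 and 0.81. All genes tested had a median of 0.08 and -0.01 in these steps. With 16, 12, 10, 4 and 2 genes the groups are of unequal size, and no test of the difference between groups was made. On CPM scaled by TMM factors the medians were higher in the same order, at 4.64, 3.34, 1.27, 0.705 and 0.487% at 48 h S and 35.2, 22.0, 15.99, 5.02 and 2.68% at 12 h SL. The antenna was not lowest early on when CPM was summed over the genes of a group. Summed, it stood above photosystem I at 48 h S (0.481 against 0.428%), 1 h SL (0.638 against 0.553%) and 6 h SL (1.67 against 1.16%). At 12 h SL it was below (3.87 against 4.24%).

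**Figure D4:**
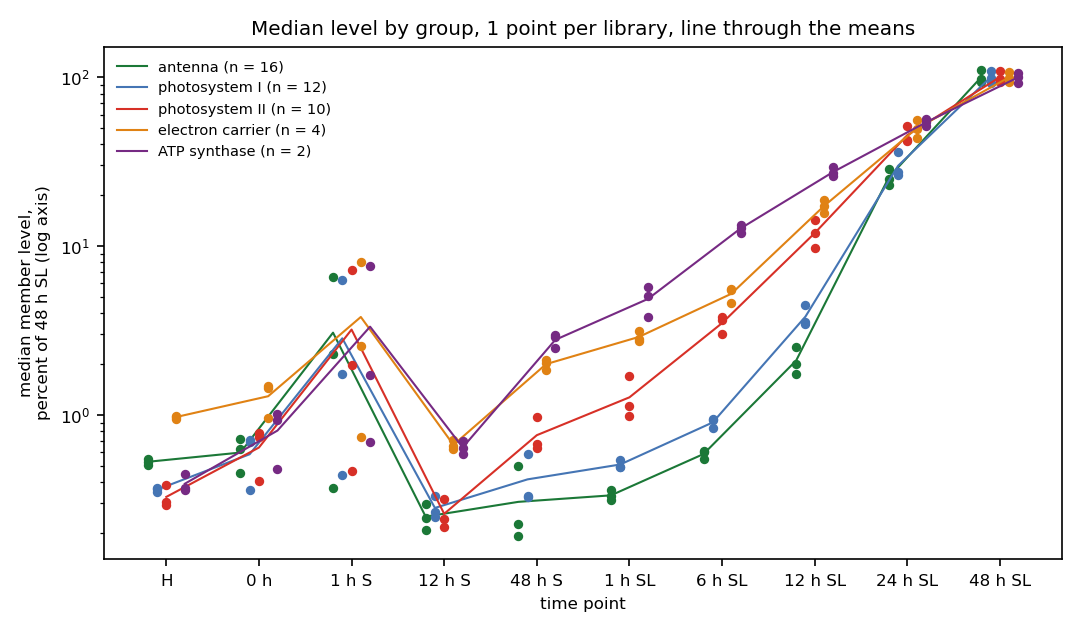
Median level of the members of each group in each library (points), as percent of the 48 h SL mean on a log axis, with lines through the means of 3 libraries. From 48 h S to 12 h SL the 5 groups keep 1 order, with the ATP synthase on top and the antenna lowest, and at 1 h S the 3 libraries are far apart in all groups.

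Most members passed 10% of their seedling level between 12 h SL and 24 h SL. Counting from 12 h S, 28 of 44 members first had a mean of at least 10% of the 48 h SL level at 24 h SL, among them 12 of 12 photosystem I genes and 11 of 16 antenna genes. PSBR had done so at 48 h S, PSBW, PETC and ATPD at 6 h SL, and 10 members at 12 h SL, namely LHCA4, LHCB4.1, LHCB4.3, PSBO2, PSBP1, PSBQ1, PSBX, PETE2, FD2 and ATPC1. LHCB1.1 and LHCB1.4 did so at 48 h SL. These times are on CPM of the whole library. In 11 members all libraries of 1 h SL and later were above all 3 of 48 h S, in 17 this held from 6 h SL on, in 13 from 12 h SL on, in LHCB1.1 and LHCB1.2 from 24 h SL on and in LHCB1.4 at 48 h SL. How many of all genes met these rules was not counted, so the counts are descriptions of the members alone.

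Genes for the same subunit differed in when they were expressed. Shares are given per length, as the part of each gene in the summed CPM per kb of the members of its family. Of the oxygen-evolving subunit PSBO, PSBO1 made up 79.7, 74.4 and 71.0% at H, 37.8, 35.9 and 52.7% at 48 h S, 13.5, 10.2 and 15.5% at 6 h SL, 70.7, 70.6 and 69.1% at 24 h SL and 68.3, 68.7 and 67.7% at 48 h SL. PSBO2 was thus the major gene in every library of 6 h SL and 12 h SL and the minor one in every library before stratification and after 12 h SL. In CPM, PSBO1 had 3.16, 7.08 and 2.88 at 1 h SL and 4.93, 4.51 and 5.44 at 6 h SL (log2 fold change 0.09 with SE 0.45 and adjusted p = 0.905), the step in which PSBO2 rose. Between 12 h SL and 24 h SL PSBO1 rose from 15.8, 17.5 and 29.2 to 237, 241 and 235 (log2 fold change 3.25 with SE 0.47 and adjusted p = 1.70e-06) while PSBO2 was not called. The 2 coding sequences were 83.6% identical. The stretch of 90 coding bases in which they differed most, 27 of 90, lies at chr5:26568817-26568906 (plus strand) and chr3:18892152-18892241 (minus strand) of TAIR10.1 (RefSeq) and is shown for the bases by which reads of this pair can be told apart, with capitals at the differing bases.
PSBO1: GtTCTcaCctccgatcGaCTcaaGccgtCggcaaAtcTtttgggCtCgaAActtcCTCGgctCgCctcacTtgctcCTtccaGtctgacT
PSBO2: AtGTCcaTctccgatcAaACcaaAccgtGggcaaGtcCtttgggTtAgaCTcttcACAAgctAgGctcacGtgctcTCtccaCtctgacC

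The PSBQ and PETE pairs also changed in their shares. PSBQ1 made up 69.6, 48.3 and 55.1% of its pair at 12 h S, 96.6, 97.2 and 95.9% at 1 h SL and 63.6, 63.9 and 65.6% at 48 h SL. PSBQ2, at 0.496, 1.32 and 0.884 CPM at 12 h S and 1.48, 1.21 and 1.54 at 6 h SL, rose at 12 h SL to 5.48, 6.70 and 7.14 (log2 fold change 2.01 with SE 0.41 and adjusted p = 4.67e-04) and at 24 h SL to 67.4, 89.2 and 64.7 CPM (log2 fold change 3.26 with SE 0.40 and adjusted p = 1.47e-07). Of the plastocyanin pair, PETE2 was the major gene in all 30 libraries, with PETE1 at 9.29, 11.5 and 12.7% at H, 0.449, 0.639 and 1.13% at 6 h SL and 13.2, 13.4 and 13.8% at 48 h SL. PETE1 had 0.175, 0.261 and 0.308 CPM at 6 h SL, 1.15, 1.04 and 2.49 at 12 h SL and 29.8, 37.3 and 29.4 at 24 h SL, a rise of that last step (log2 fold change 4.26 with SE 0.45 and adjusted p = 1.16e-08) in which PETE2 was not called (log2 fold change 0.62 with SE 0.39 and adjusted p = 0.171).

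In photosystem I the PSAD pair changed over. PSAD1 made up 16.9, 18.9 and 18.9% at H and 75.4, 77.0 and 76.4% at 48 h SL, and its share at 48 h S, 67.8, 63.9 and 74.2%, was already above every library of H and 0 h. Of the PSAE pair, PSAE1 made up 15.1, 34.4 and 36.3% at 12 h S, 79.9, 73.8 and 80.8% at 1 h SL and 47.7, 46.0 and 49.2% at 48 h SL, where the genes stood at 142, 120.2 and 139.8 (PSAE1) and 118.6, 107 and 109.9 CPM (PSAE2). Which of this pair was the larger at 48 h SL depended on the method, since PSAE1 made up a mean of 56.5% in the transcript table. Neighbours overlapped 34.1% of the exon length of PSAE1 and 10.4% of that of PSAE2, and the part of this overlap in the count shares was not tested. PSAE2 had 0.716, 0.694 and 1.06 CPM at 48 h S and 0.852, 1.04 and 0.739 at 6 h SL and rose at 12 h SL to 5.002, 4.72 and 5.73 (log2 fold change 2.35 with SE 0.36 and adjusted p = 1.61e-05). PSAH2 made up 59.1, 56.5 and 48.1% at H and 78.6, 78.1 and 78.2% at 48 h SL, where it was at 228, 200.2 and 227 CPM, with the limit that 53.3% of the PSAH1 exon length overlaps a neighbour. All these shares are descriptions, and whether paralogs differed in their change was not tested.

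In the antenna families the shares of LHCB1 depended on the method. LHCB1.3 made up 67.2, 65.7 and 64.4% of the 4 LHCB1 genes with counts at H and 65.2, 66.6 and 67.1% at 48 h SL, and its lowest share, at 48 h S (44.5, 41.5 and 56.2%), was met by a high share of LHCB1.1 (38.7, 42.3 and 21.6%), which was the larger of the 2 in replicate 2. In the transcript table, which holds LHCB1.5, LHCB1.5 was the major gene of the family at H, with 53.0, 51.9 and 46.1%, and LHCB1.3 made up 30.9, 32.0 and 34.9%. There LHCB1.3 stood at 56.8, 58.4 and 59.2% at 48 h SL and LHCB1.5 at 13.9, 13.4 and 13.0%, so that LHCB1.3 had a larger share at 48 h SL than at H in that table and not in counts. LHCB1.2 made up 28.2, 26.7 and 27.4% at 24 h SL and 19.8, 18.5 and 17.6% at 48 h SL, and LHCB1.4 0.123, 0.163 and 0.109% and 2.90, 2.97 and 3.199%. LHCB2.1 made up 75.01, 79.4 and 77.3% of the sum of LHCB2.1 and LHCB2.2 at H and 50.1, 51.1 and 50.7% at 48 h SL. A further gene of that family, LHCB2.3 (AT3G27690), was not a member and is not part of these shares. LHCB2.3 stood at a mean of 24.3 CPM per kb at 48 h SL but at 0.0427 in the transcript table, so its level depended on the method. In the LHCB4 trio LHCB4.1 was the major gene in every library, with 68.6, 64.1 and 66.6% at 48 h S, 90.04, 87.5 and 80.2% at 12 h SL and 67.9, 67.6 and 68.2% at 48 h SL, and LHCB4.3 took 16.5, 19.2 and 12.5% at 48 h S, 13.2, 14.7 and 13.8% at 24 h SL and 5.52, 5.34 and 4.97% at 48 h SL.

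**Figure D5:**
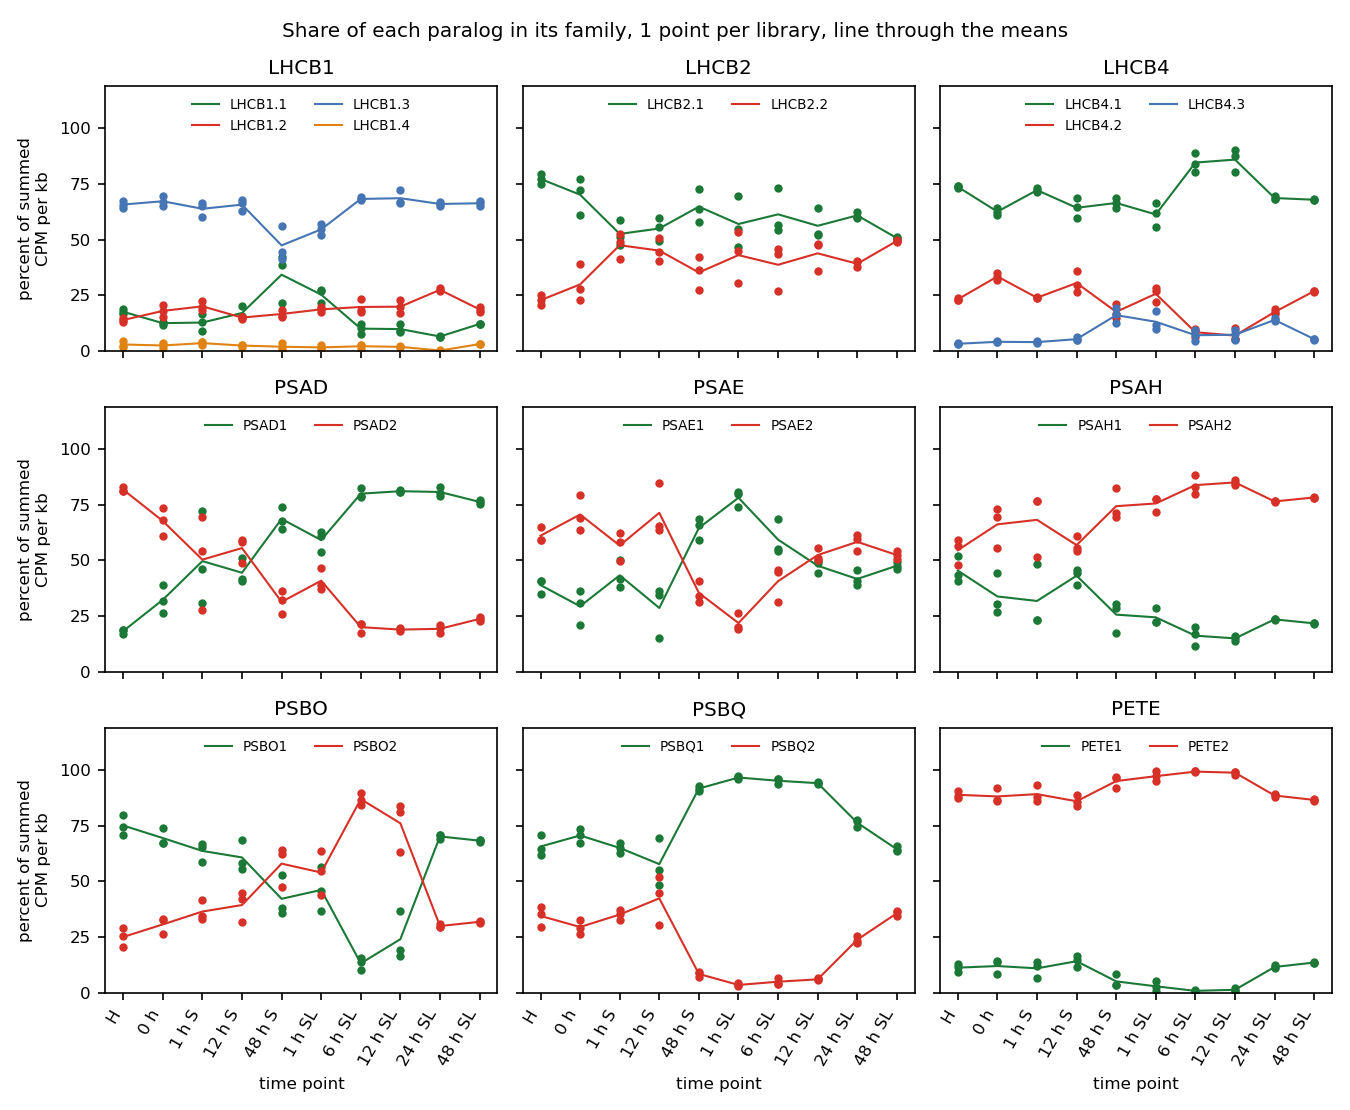
Share of each gene in the summed CPM per kb of the members of its family, by time point, with 1 point per library and lines through the means (LHCB1.5, at 0 counts, and LHCB2.3, not a member, are left out). PSBO1 and PSBO2 cross between 12 h S and 48 h S and again between 12 h SL and 24 h SL, and PSAD1 and PSAD2 cross between 12 h S and 48 h S.

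The sequence before the genes was read for 3 hexamers, on both strands, in the 250 bases before the annotated start. The G-box CACGTG and the I-box GATAAG are known from promoters of light-regulated plant genes, and CCAATC holds the letters of the CCAAT box. The G-box was found before 8 of the 45 members (17.8%), against 6.47% of 27279 protein-coding nuclear genes, and the I-box before 12 (26.7%), against 12.3%. CCAATC was found before 13 members (28.9%), against 10.2% of all genes, and these were 9 of 17 antenna genes, 2 of 4 electron carrier genes, ATPD, PSBQ2 and 0 of 12 photosystem I genes. No 2 matches overlapped in any member, and a match is a description of the sequence and not of a binding site. LHCA4 and LHCB4.1, which with LHCB4.3 were the antenna genes at 10% of the seedling level by 12 h SL, each held 1 G-box and 2 copies of CCAATC. LHCB6, which first reached 10% at 24 h SL, also held a G-box. LHCB4.3 and LHCB1.4, with the flattest and the steepest last step, held none of the 3 hexamers. Neither did LHCA2, LHCB1.1, LHCB1.2, LHCB3 and LHCB5. PETE1 held none of them, whereas PETE2 held an I-box and CCAATC. A link between the hexamers and timing was not tested. The sequences of LHCA4, LHCB4.1, LHCB4.3, LHCB1.4, PETE1 and PETE2 are shown because they stand before antenna and plastocyanin genes that differed in timing. They lie at chr3:17495034-17495283 (minus strand), chr5:208616-208865 (plus), chr2:16745378-16745627 (plus), chr2:14524357-14524606 (plus), chr1:28554931-28555180 (minus) and chr1:7043393-7043642 (minus) of TAIR10.1 (RefSeq), 5′ to 3′ towards the gene, with the 3 hexamers in capitals.
LHCA4: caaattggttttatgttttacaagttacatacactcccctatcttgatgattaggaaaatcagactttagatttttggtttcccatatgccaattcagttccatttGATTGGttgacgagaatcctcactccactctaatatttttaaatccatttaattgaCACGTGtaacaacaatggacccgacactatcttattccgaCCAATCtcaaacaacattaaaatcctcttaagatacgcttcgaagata
LHCB4.1: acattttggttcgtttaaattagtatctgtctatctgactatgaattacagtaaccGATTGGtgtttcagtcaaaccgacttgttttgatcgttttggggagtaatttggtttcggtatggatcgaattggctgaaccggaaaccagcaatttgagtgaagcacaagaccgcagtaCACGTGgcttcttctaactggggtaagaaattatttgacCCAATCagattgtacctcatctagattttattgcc
LHCB4.3: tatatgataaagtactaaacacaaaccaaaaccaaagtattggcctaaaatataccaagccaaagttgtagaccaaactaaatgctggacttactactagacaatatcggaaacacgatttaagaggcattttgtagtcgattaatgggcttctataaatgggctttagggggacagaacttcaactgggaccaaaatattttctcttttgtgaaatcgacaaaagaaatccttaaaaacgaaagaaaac
LHCB1.4: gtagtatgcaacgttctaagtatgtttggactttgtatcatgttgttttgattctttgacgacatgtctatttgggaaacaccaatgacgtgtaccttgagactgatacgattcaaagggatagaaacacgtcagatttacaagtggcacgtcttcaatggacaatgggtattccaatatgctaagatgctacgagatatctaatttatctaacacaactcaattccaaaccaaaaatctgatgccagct
PETE1: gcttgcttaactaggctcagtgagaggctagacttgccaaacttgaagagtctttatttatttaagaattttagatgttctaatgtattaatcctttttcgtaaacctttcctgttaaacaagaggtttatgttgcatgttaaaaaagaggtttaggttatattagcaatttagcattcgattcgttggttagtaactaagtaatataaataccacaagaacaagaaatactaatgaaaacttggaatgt
PETE2: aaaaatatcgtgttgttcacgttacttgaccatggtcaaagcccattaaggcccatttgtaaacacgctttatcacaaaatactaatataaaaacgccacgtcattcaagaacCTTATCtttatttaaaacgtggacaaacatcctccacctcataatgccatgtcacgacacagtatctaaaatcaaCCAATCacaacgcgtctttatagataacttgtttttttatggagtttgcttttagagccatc

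In LHCA4 the G-box began 88 bases before the start and the CCAATC copies 144 and 48 bases before it, and in LHCB4.1 the G-box began 74 bases before the start and the CCAATC copies 194 and 35 bases before it. In PETE2 the I-box began 137 and CCAATC 62 bases before the start. LHCB1.3, the antenna gene with the highest level, held CCAATC 91 bases before its start and neither of the other hexamers. PSBQ1 and PSBQ2, which differed in timing, each held 2 copies of the G-box, and PSBO1 and PSBO2 held none of the 3 hexamers.

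Other genes of the thylakoid were called less often than the members in the late steps, though this difference was not tested. Of 16 further nuclear thylakoid genes (rarer LHCA and LHCB genes, other PSB, PET, ferredoxin, ferredoxin reductase and cyclic flow genes and the remaining ATP synthase genes), 15 were tested. Of these, 4 were called higher and 0 lower between 6 h SL and 12 h SL, 5 higher and 1 lower to 24 h SL and 7 higher and 0 lower to 48 h SL, with medians of 0.46, 0.34 and 0.58. Of 6 light stress relatives of the antenna (ELIP, OHP and LIL genes), 4 were called higher (27% of all genes) and 1 lower (24.8%) already from 12 h S to 48 h S, in darkness. Their median log2 fold change was 1.49. Between 24 h SL and 48 h SL 0 were called higher (21.9%) and 1 lower (19%). Of 5 genes for insertion and assembly of the antenna and photosystems (ALB3, CPSRP43, CPSRP54, CPFTSY and HCF136), 1 was called higher (25.9%) and 1 lower (22%) between 12 h SL and 24 h SL, and 3 higher (21.9%) to 48 h SL. Of the regulators GLK1 and GLK2 and the kinases STN7 and STN8, 4 of 4 were called lower from H to 48 h S (32.5% of all genes). In each of the 3 steps between 6 h SL and 48 h SL, 2 were called higher (10.7, 25.9 and 21.9%).

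The partner subunits encoded in the chloroplast took another course. Of 10 such genes (psaA, psaB, psbA, psbB, psbC, psbD, petA, petB, atpA and atpB), 8 were called higher between 6 h SL and 12 h SL (10.7% of all genes). Their median log2 fold change was 2.36. Between 12 h SL and 24 h SL, the step in which 37 members rose, 10 were called lower (22%), with a median of -3.47. From 0 h to 48 h SL 10 were called lower (33.3%), with a median of -3.79. The labels name both a total RNA kit and poly(A) selection, so which chloroplast RNA was captured is uncertain. At 12 h SL the chloroplast genes took 0.0390, 0.0673 and 0.365% of reads in replicates 1, 2 and 3, and these values describe the captured RNA. All 10 genes had their most reads of 12 h SL in replicate 3, such as 1256, 1882 and 4810 for psbA, though its total was the smallest there (12038278). The sizes of the changes into and out of 12 h SL thus lean on 1 library. The part of capture in them was not tested.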

How the data were processed

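RNA was sequenced from 30 wild type Col0 libraries, 3 at each of 10 time points. Per the labels the libraries were made with a total RNA kit, poly(A) selected and not stranded. How the kit and the selection were combined is not given in the sources used here. The deposited gene counts are whole numbers that the authors made with Trim Galore 0.4.2, HISAT2 2.0.5 and featureCounts 1.5.1 on TAIR10 with Araport11. How ambiguous reads were treated is not given in the sources used here, and rows for unannotated loci are part of the table. The deposited transcript table holds a signal that the authors made with Salmon 0.7.2 and sleuth 0.28.1. Its library sums differ from those of TPM, so a size factor per library is inferred. Columns of the authors' own expression calls and test results were not used.

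CPM were counts scaled to a common library total, and CPM per kb used the deposited exon length. Counts were tested with edgeR 4.0.16 (filterByExpr, minimum count 10, TMM, quasi-likelihood test, all 30 libraries in 1 fit, no replicate block) in 11 comparisons, and with the DESeq2 1.42.0 likelihood ratio test over time, in R 4.3.3, at a Benjamini-Hochberg adjusted p below 0.01. Transcript signals summed per gene were tested with limma 3.58.1 on log2(value + 0.1), an alternative. That fold is on the log2(value + pseudocount) scale and understates changes of low genes. The procedures were tested on simulated data. Depth was 8234345 to 76294780 reads per library. The replicates came from a single batch of plants, so p-values measure the spread between these samples.

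All 45 members were named, with values per library for the highest and lowest per length in each group, the largest called rise and fall of each comparison, and the paralog families. Members and lists were chosen with earlier results of these data known. The alternatives were other scaling, filters, thresholds, tests, fewer libraries, a replicate block and each library left out. Fits without replicates 2 and 3 of 1 h S, and comparisons of H and 0 h with 12 h S, were chosen after seeing the data. Genes that the text singles out beyond the rule above were likewise chosen after their values were seen. Sequences came from the RefSeq annotation of TAIR10.1, in which 44 of 45 members had the positions of the count table.

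Replicate numbers were tested for pairing by the correlation of deviations from the group means. From 6 h SL to 12 h SL every pair was above 0.1 (0.13, 0.14 and 0.25), and in the other 10 comparisons not every pair was.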

Additional observations from a re-analysis of the deposited data

How the results depend on the processing

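At least 44 time effects, and at least 44 calls from 0 h to 48 h SL, were found under every alternative run. All 242 called log2 fold changes kept their direction under the alternatives other than the 2 libraries left out. The lowest depth was that of 1 h S replicate 2, and the next that of 12 h SL replicate 3. The cause of the changes below was not tested.

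From H to 0 h, the number of members called was 5 at an adjusted p below 0.05, 1 with no filter, 29 from the 6 libraries of the comparison alone, 4 by DESeq2's Wald test and 11 without 1 h S replicates 2 and 3. From 0 h to 1 h S, with 14 called, these numbers were 30, 29, 0, 29 and 0, and they were 7 with library size alone and 3 in the transcript table. From 1 h S to 12 h S, with 43 called, there were 19 from the 6 libraries and 15 without the 2 libraries of 1 h S. From 48 h S to 1 h SL, with 2 called, there were 5 at the looser threshold, 1 with library size alone, 1 from the 6 libraries and 9 without the 2 libraries of 1 h S. From 1 h SL to 6 h SL, with 12 called, there were 21 without them.

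Without the 2 libraries of 1 h S the change from 0 h to 1 h S turned to -0.94 for LHCB1.1, -0.094 for LHCB3, -0.30 for LHCB6, -0.47 for PSAF, -0.58 for PSAH2, -0.11 for PSBO2, -0.16 for PSBQ1, -0.089 for PSBS and -0.38 for PETE2 on the log2 scale, with 1 library of 1 h S left and its spread taken from the other groups.

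Leaving out each library in turn, the time effect held for 44 to 44 members. The numbers called ran from 0 to 7 (H to 0 h), 0 to 38 (0 h to 1 h S), 41 to 43 (1 h S to 12 h S), 9 to 13 (12 h S to 48 h S), 0 to 7 (48 h S to 1 h SL), 8 to 18 (1 h SL to 6 h SL), 20 to 38 (6 h SL to 12 h SL), 34 to 40 (12 h SL to 24 h SL), 25 to 40 (24 h SL to 48 h SL), 9 to 19 (H to 48 h S) and 44 to 44 (0 h to 48 h SL). For 48 h S to 1 h SL, 0 were called without 48 h S replicate 2 or 1 h SL replicate 2, 6 without 1 h S replicate 1 and 7 without 1 h S replicate 2.

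With the replicate number as a block, 7 members were called from 0 h to 1 h S in place of 14, in a comparison whose samples share only a number, and 29 in place of 31 from 6 h SL to 12 h SL. In the latter, the 1 comparison with every pair above 0.1, each sample also correlated best with its own number. In no other comparison did the block move the number called by over 1.5 times.

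On CPM scaled by TMM, group medians at 48 h S became 0.487% (antenna), 0.705% (photosystem I), 1.27% (photosystem II), 3.34% (electron carriers) and 4.64% (ATP synthase). At 12 h SL they became 2.68, 5.02, 15.99, 22.0 and 35.2%, and at 24 h SL the ATP synthase became 57.1%. In the transcript table the shares at 48 h SL became 75.4% for PSAD1, 56.5% for PSAE1, 61.3% for PSBQ1, 18.2% for PETE1, 48.8% for LHCB2.1, 65.3% for LHCB4.1 and 58.1% for LHCB1.3, which stood at 60.6% at 6 h SL.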
